A study of Arabidopsis thaliana with 9 samples.

Results

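The genes described here are 55 Arabidopsis thaliana loci of iron uptake, signalling, transport and storage, taken by their locus identifiers from a table of 25199 loci. All 55 were in the table, and 52 reached at least 1 FPKM in at least 3 libraries and were tested. The list was drawn up with earlier results of these libraries known, and which comparison prompted it is not recorded, so counts and adjusted p values of its members describe the data and are no independent support. RNA sequencing had been done on whole seedlings 7 days old, grown without treatment on agar plates of diluted Murashige and Skoog medium at 22 °C with 16 h of light a day. There were 3 groups of 3 biological replicates: RAV1-OE, which over-expresses RAV1, a transcription factor with an AP2 and a B3 DNA-binding domain; bes1-D, which carries a gain-of-function allele of BES1, a transcription factor of brassinosteroid signalling; and WT, the wild type En2. All 9 libraries carry the Enkheim (En2) genotype label. What promoter drives RAV1, and in how many independent lines, is not given in the sources used here. By its title the series concerns the way RAV1 and BES1 act on each other and on growth and defence, and iron supply was not varied.

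Plants that lack iron turn on a set of basic helix-loop-helix (bHLH) transcription factors and short IMA peptides, which raise the root machinery that acidifies the soil, releases coumarins, reduces ferric iron and imports ferrous iron. The E3 ubiquitin ligase BTS and its relatives hold this response back, nicotianamine and citrate carry iron through the plant, and ferritins and vacuolar transporters store what is in excess. Genes of the response are therefore known as deficiency-induced, while ferritins, the vacuolar importers and some shoot transporters are high when iron is ample. Textbook knowledge placed 38 of the 55 loci in the class called deficiency-induced here (35 tested) and 11 in the class called iron-replete (11 tested). The other 6 were put in neither class. Like the list, the classes were set with earlier results of these libraries known, so counts and medians by class are no independent support.

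RAV1 was at 1064, 756 and 1426 FPKM in RAV1-OE, 53.9, 58.3 and 33.2 FPKM in bes1-D and 71.4, 99 and 81.9 FPKM in WT, and rose in RAV1-OE against WT (log2 change 3.63 ± 0.26, limma adjusted p = 0.000116). BES1 was at 60.7, 73.5 and 52.4 FPKM in RAV1-OE, 136, 142 and 182 FPKM in bes1-D and 95.5, 121 and 106 FPKM in WT. It fell in RAV1-OE against WT (-0.79 ± 0.15, adjusted p = 0.00508) and was not called in bes1-D against WT (0.50 ± 0.15, adjusted p = 0.0692). In each of these comparisons the groups did not overlap, and the exact two-sided permutation p was 0.1, the smallest that 3 against 3 libraries allow. FPKM, fragments scaled to transcript length and to all mapped fragments, are levels per length, so they can be set side by side between genes. Changes are on the log2(FPKM + 1) scale, which understates those of low genes, are given ± SE, and count as calls where p, adjusted by Benjamini-Hochberg over all 19740 loci tested, was under 0.05. Depth is unknown for FPKM, and the libraries were between 82% and 115% of WT replicate 1 as far as low values show. Root and green-tissue markers were detected in every group, so both organs are in the samples, and fewer cells of a type cannot be told apart from less RNA per cell.

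In bes1-D against WT, 13 of the 35 tested deficiency-induced genes fell and 0 rose, while 6 of the 11 iron-replete genes rose and 0 fell. Among the 13, BHLH101 and NAS2 reached 1 FPKM in no bes1-D library and passed the filter only through the other groups. In RAV1-OE against WT, 3 deficiency-induced genes rose and 4 fell, and 5 iron-replete genes rose and 1 fell. The iron genes called in bes1-D were thus 36.5% of the 52 tested, against 7.96% of all loci, with 13 lower (25.0%, against 5.77% of all loci) and 6 higher (11.5%, against 2.19%). In RAV1-OE the called iron genes were 30.8% of the 52, against 23.0% of all loci, with 11 higher (21.2%, against 15.0%) and 5 lower (9.62%, against 8.01%). Both comparisons use the same WT libraries. The 11 became 5 without RAV1-OE replicate 1, 6 without WT replicate 2 and 7 without WT replicate 3, and the 5 became 2 or 3 without WT replicate 1 or 3 or RAV1-OE replicate 1 or 3.

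The median log2 change of the deficiency-induced genes was -0.06 in RAV1-OE and -0.53 in bes1-D against WT, and that of the iron-replete genes was 0.26 in RAV1-OE and 0.62 in bes1-D. Over all loci tested these medians were 0.093 in RAV1-OE and -0.062 in bes1-D. Library by library, the median difference of the deficiency-induced genes from the WT mean was -0.02, 0.16 and -0.23 in RAV1-OE and -0.48, -0.73 and -0.66 in bes1-D, against 0.16, -0.07 and 0.01 in WT. For the iron-replete genes it was 0.23, 0.18 and 0.69 in RAV1-OE and 0.69, 0.73 and 0.71 in bes1-D, against -0.11, 0.03 and 0.09 in WT. The 3 bes1-D libraries were below all WT libraries in the deficiency-induced class, where RAV1-OE and WT overlapped. In the iron-replete class all RAV1-OE and bes1-D libraries were above all WT libraries, and RAV1-OE replicate 3 stood above the other RAV1-OE libraries. Without WT replicate 1 or 2, RAV1-OE replicate 1, or bes1-D replicate 2 or 3, 3 iron-replete genes rose in bes1-D instead of 6. Without WT replicate 1, 2 or 3 or RAV1-OE replicate 1 or 3, the iron-replete genes that rose in RAV1-OE numbered 2 or 3 instead of 5.

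**Figure D1:**
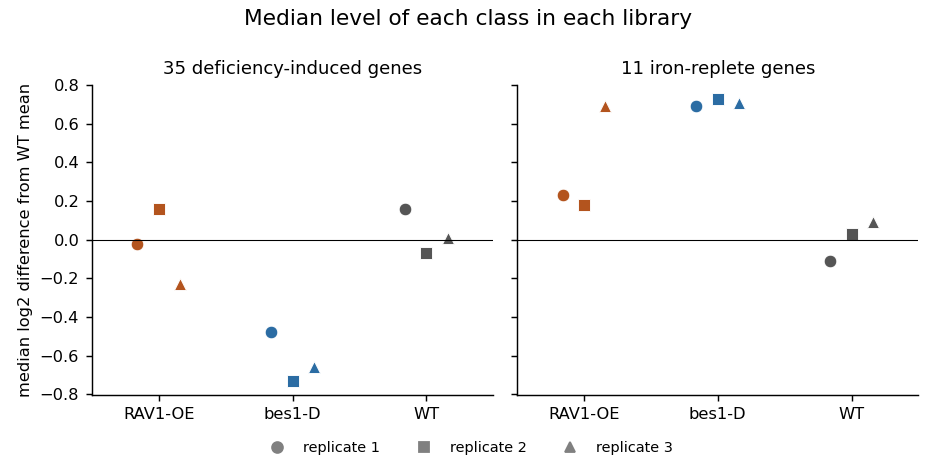
Median difference from the WT mean on the log2(FPKM + 1) scale in each library, over the 35 tested deficiency-induced genes (left) and the 11 iron-replete genes (right); each point is a library and its shape the replicate. The bes1-D libraries lie between -0.73 and -0.48 on the left and between 0.69 and 0.73 on the right.

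Set directly against each other, RAV1-OE and bes1-D differed at 29 of the 52 tested iron genes. Of these, 22 were higher in RAV1-OE, or 42.3% against 28.0% of all loci, and 7 were lower, or 13.5% against 10.6% of all loci (38.5% of all loci were called in either direction). Among the deficiency-induced genes 19 were higher in RAV1-OE than in bes1-D and 3 lower, with a median log2 difference of 0.72. Among the iron-replete genes 0 were higher and 4 lower, with a median of -0.26. The median over all loci was 0.191 in this comparison and 0.04 after trimmed-mean scaling, a shift that applies to every difference between these genotypes. That scaling also changed the split of all calls. Between RAV1-OE and bes1-D it gave 2640 higher and 2927 lower loci, where the values as deposited gave 5520 and 2084. In RAV1-OE against WT it gave 1937 and 2134 (as deposited 2960 and 1581), and in bes1-D against WT 593 and 761 (as deposited 433 and 1139).

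Tissue markers differed between the groups as well. The summed level of 16 root markers was 232 to 238 FPKM in RAV1-OE, 113 to 146 FPKM in bes1-D and 186 to 213 FPKM in WT. In bes1-D 7 of them fell (43.8%, against 5.77% of all loci) and 0 rose against WT. COBL9, EXPA7, PRP3, RHD6, CASP1 and SKOR were among the 7. The other 9 were not called, among them WER (-0.06 ± 0.20) and SCR (-0.05 ± 0.11), while 15 of the 16 changes were negative. In RAV1-OE 4 root markers rose (25.0%, against 15.0%) and 2 fell (12.5%, against 8.01%). Their median log2 change was -0.63 in bes1-D and 0.06 in RAV1-OE, where 8 changes were positive and 8 negative. Of the root markers 0 were at 0 in all libraries of a group. The sum of 6 green-tissue markers was 19222 to 26932 FPKM in RAV1-OE, where all 6 fell, 41007 to 44780 FPKM in bes1-D and 37645 to 39679 FPKM in WT. The sum of 5 seed maturation markers was 418, 127 and 1543 FPKM in RAV1-OE replicates 1 to 3, where all 5 rose, 15.7 to 26.7 FPKM in bes1-D and 12.2 to 29.5 FPKM in WT. Of 9 clock genes, 4 rose and 1 fell in RAV1-OE (55.6% called, against 23.0% of all loci). In bes1-D against WT 1 clock gene rose (11.1%, against 7.96%). The part of these markers in the results for iron genes was not tested.

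**Figure D2:**
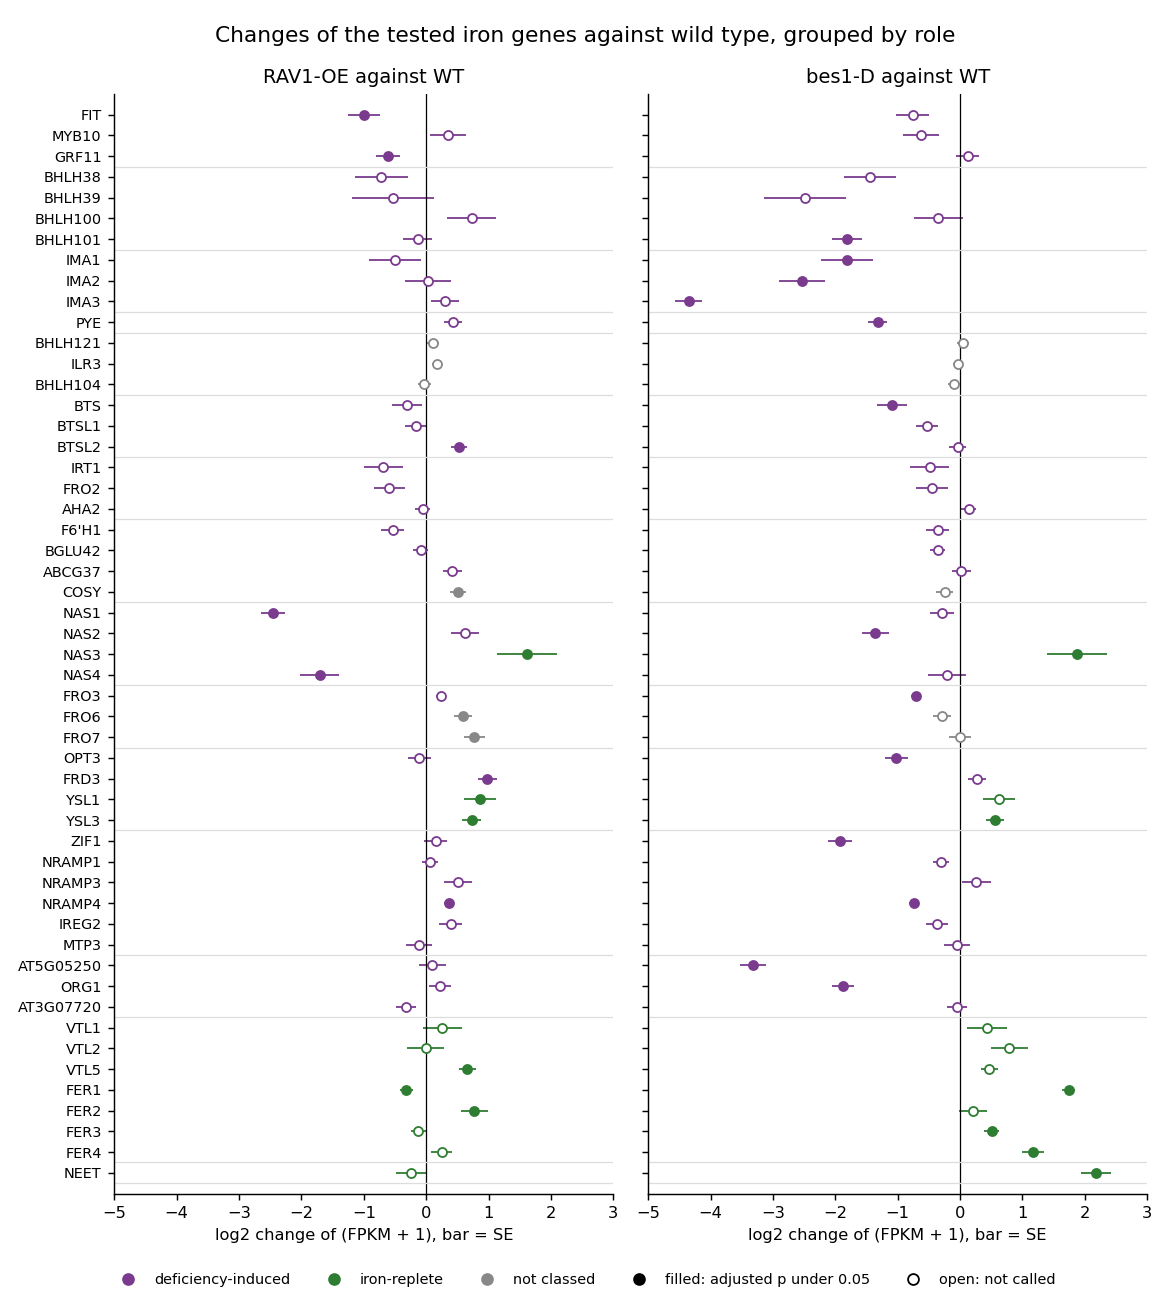
Log2 change of FPKM + 1 with its SE (bar) for the 52 tested iron genes, grouped by role, in RAV1-OE against WT (left) and bes1-D against WT (right). Purple marks deficiency-induced, green iron-replete and grey unclassed genes, and filled points have an adjusted p under 0.05; on the right the filled purple points lie between -4.35 and -0.70 and the filled green points between 0.51 and 2.18.

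The letters before the transcription start of some genes called in bes1-D are shown for short motifs that bHLH factors, BES1 and RAV1 are known to bind. Every promoter shown holds a motif marked below, and other called genes, named further on, hold none. Promoters were taken as the 250 bases before each annotated start in the RefSeq annotation of TAIR10.1, and those below belong to IMA1 (chr1:17385457-17385706, + strand), IMA2 (chr1:17382748-17382997, + strand), OPT3 (chr4:9250344-9250593, - strand), BTS (chr3:6273716-6273965, + strand) and AT5G05250 (chr5:1558487-1558736, - strand), which fell in bes1-D, and to FER3 (chr3:20816036-20816285, - strand), which rose there. Capitals mark, on either strand, the G-box CACGTG, the brassinosteroid response motif CGTGTG or CGTGCG, and the RAV1 B3 motif CACCTG.
IMA1: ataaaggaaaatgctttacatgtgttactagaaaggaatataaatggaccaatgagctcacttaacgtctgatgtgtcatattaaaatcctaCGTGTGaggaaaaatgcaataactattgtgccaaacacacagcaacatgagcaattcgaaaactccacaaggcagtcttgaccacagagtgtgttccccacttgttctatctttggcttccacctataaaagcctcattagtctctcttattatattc
IMA2: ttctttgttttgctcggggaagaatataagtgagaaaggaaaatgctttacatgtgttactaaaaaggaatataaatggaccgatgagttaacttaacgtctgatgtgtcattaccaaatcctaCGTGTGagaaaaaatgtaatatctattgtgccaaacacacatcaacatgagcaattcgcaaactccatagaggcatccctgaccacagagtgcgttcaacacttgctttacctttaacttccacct
OPT3: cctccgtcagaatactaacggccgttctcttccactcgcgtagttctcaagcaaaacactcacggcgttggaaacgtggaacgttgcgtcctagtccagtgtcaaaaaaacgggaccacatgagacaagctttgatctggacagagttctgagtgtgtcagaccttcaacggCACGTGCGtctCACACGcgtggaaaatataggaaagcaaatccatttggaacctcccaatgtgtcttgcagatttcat
BTS: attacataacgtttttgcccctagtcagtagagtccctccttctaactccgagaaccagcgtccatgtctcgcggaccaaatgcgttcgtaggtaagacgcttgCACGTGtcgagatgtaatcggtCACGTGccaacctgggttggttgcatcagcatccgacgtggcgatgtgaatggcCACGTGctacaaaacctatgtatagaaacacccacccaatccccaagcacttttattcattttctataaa
AT5G05250: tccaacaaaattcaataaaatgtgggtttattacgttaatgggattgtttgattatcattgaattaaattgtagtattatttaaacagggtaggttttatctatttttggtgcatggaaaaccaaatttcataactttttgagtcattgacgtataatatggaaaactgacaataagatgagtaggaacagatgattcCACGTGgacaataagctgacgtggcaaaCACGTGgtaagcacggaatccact
FER3: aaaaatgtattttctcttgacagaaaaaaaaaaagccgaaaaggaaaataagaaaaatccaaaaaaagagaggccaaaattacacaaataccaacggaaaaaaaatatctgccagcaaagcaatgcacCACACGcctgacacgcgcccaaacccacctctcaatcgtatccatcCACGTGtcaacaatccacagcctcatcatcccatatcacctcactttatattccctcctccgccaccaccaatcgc

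A brassinosteroid response motif lay in the promoters of 5 of the 13 genes that fell in bes1-D (38.5%: BHLH101, IMA1, IMA2, PYE and OPT3) and of 1 of the 6 that rose (FER3), against 6.80% of 25134 promoters. None was in the promoters of the 5 genes that fell or the 11 that rose in RAV1-OE. IMA1 and IMA2 lie 1876 bases apart and have alike letters around the motif, so they are not separate cases. In OPT3 the G-box 78 bases and the motif CGTGCG 76 bases before the start share bases, and a further CGTGTG lay 67 bases before it. BTS held 3 G-boxes, 146, 124 and 70 bases before its start, and AT5G05250 held 2, at 52 and 24 bases. FER3 had a G-box 76 bases before its start. G-boxes were in 9 of the 55 promoters (16.4%; among them BHLH38, BHLH100, FRO6 and FRO7), against 6.84% of all promoters, and the RAV1 B3 motif was in 1 (BHLH100), against 2.71%. The second RAV1 motif, CAACA, which is not marked in the sequences, was in 58.2% of the 55 and 47.2% of all promoters. These shares describe letters in a window, over genes chosen by their values, and IMA3, the gene that fell most in bes1-D, held neither a G-box nor a brassinosteroid response motif there. Neither motif was found for NAS2, FRO3, ZIF1, NRAMP4 and ORG1, which also fell in bes1-D. The same was true of FER1, NEET, NAS3 and YSL3, which rose there.

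The IMA peptides, short mobile signals that switch on iron uptake, all fell in bes1-D, and IMA3 fell the most of all iron genes tested on the log2 scale. IMA3 (AT2G30766, chr2:13107583-13110480) was at 69.3, 61.5 and 41.5 FPKM in RAV1-OE, 1.13, 0.92 and 1.91 FPKM in bes1-D and 55.4, 44.9 and 38 FPKM in WT. Its bes1-D mean was 34.9-fold below the WT mean, and the groups did not overlap (log2 change -4.35 ± 0.22, limma adjusted p = 6.16e-06). IMA2 (AT1G47395) was at 67.4, 101 and 38.9 FPKM in RAV1-OE, 9.01, 16.8 and 6.68 FPKM in bes1-D and 53.4, 63.9 and 73.1 FPKM in WT, a fall of 5.85-fold in bes1-D (-2.53 ± 0.37, adjusted p = 0.00625). IMA1 (AT1G47400) was at 30, 51.6 and 14.2 FPKM in RAV1-OE, 6.85, 13.9 and 12.9 FPKM in bes1-D and 32.8, 42.3 and 47.1 FPKM in WT, a fall of 3.63-fold in bes1-D (-1.81 ± 0.42, adjusted p = 0.0353). All 3 were lower in every bes1-D library than in any WT or RAV1-OE library, and none was called in RAV1-OE against WT (log2 change 0.30 ± 0.22 for IMA3, 0.03 ± 0.37 for IMA2 and -0.50 ± 0.42 for IMA1). IMA1 and IMA2 lie 1876 bases apart and their coding sequences are 88.9% identical, so the split of fragments between them is uncertain. The IMA1 call in bes1-D ended without any 1 WT library, RAV1-OE replicate 1, or bes1-D replicate 1 or 2 (adjusted p 0.0556 to 0.111).

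The Ib bHLH factors, which pair with FIT to turn on uptake genes, were low in all bes1-D libraries. BHLH101 was at 2.67, 3.25 and 1.76 FPKM in RAV1-OE and 4.19, 2.35 and 2.32 FPKM in WT, while in bes1-D it was listed at 0 in replicates 1 and 3 and at 0.32 FPKM in replicate 2 (bes1-D against WT, -1.82 ± 0.24, limma adjusted p = 0.00252). BHLH101 thus passed the filter of 1 FPKM only through RAV1-OE and WT, the groups where it was high. BHLH39 was at 9.3, 15.7 and 0.95 FPKM in RAV1-OE, 0.69, 0.41 and 1.38 FPKM in bes1-D and 7.65, 10.5 and 9.09 FPKM in WT. BHLH38 was at 4.23, 4.46 and 0.88 FPKM in RAV1-OE, 2, 0.43 and 1.81 FPKM in bes1-D and 4.28, 6.25 and 5.31 FPKM in WT. In bes1-D every library of both was below every WT library, by 11.0-fold in the means of BHLH39 and 3.74-fold in those of BHLH38, yet neither was called (-2.49 ± 0.66, adjusted p = 0.0545, and -1.44 ± 0.42, adjusted p = 0.0675). The spread that the groups share includes RAV1-OE replicate 3, in which both genes were far below the other RAV1-OE libraries. Without that library both were called in bes1-D against WT (adjusted p = 0.000626 for BHLH39 and 0.012 for BHLH38), as they were with only bes1-D and WT in the fit (0.000875 and 0.0224). Leaving out RAV1-OE replicate 2 also gave a BHLH39 call (0.028).

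BHLH100, the fourth member of that group, was at 3.28, 3.45 and 0.4 FPKM in RAV1-OE, 0.55, 0.15 and 0.6 FPKM in bes1-D and 1.02, 0.79 and 0.62 FPKM in WT. It was called nowhere over all libraries (RAV1-OE against WT 0.73 ± 0.39, limma adjusted p = 0.202; bes1-D against WT -0.35 ± 0.39, adjusted p = 0.652), and without RAV1-OE replicate 3 it was higher in RAV1-OE than in WT (1.28, adjusted p = 0.00479). BHLH100 reached 1 FPKM only in RAV1-OE replicates 1 and 2 and WT replicate 1, so it passed the filter through no bes1-D library. BHLH38, BHLH39 and BHLH100 were thus all lowest in RAV1-OE replicate 3 among the RAV1-OE libraries, the library with the highest sum of seed maturation markers and the highest RAV1 level. So were BHLH101, the IMA genes, PYE, BTS, NAS4, ZIF1, ORG1 and AT5G05250, while others, such as FIT and IRT1, were highest there. That library also had the lowest estimated depth, 82% of WT replicate 1. The part of these traits in the low values was not tested. Between RAV1-OE and bes1-D, BHLH101 (1.68 ± 0.24, adjusted p = 0.00066) and BHLH39 (1.96 ± 0.66, adjusted p = 0.0443) were higher in RAV1-OE. The BHLH39 call ended without any 1 library other than RAV1-OE replicate 3 (adjusted p 0.0546 to 0.127) and under either scaling, with no filter, with the replicate block or with RAV1-OE and bes1-D alone (0.0517 to 0.0895). BHLH38 and BHLH39 lie 1144 bases apart with 84.8% identical coding sequences, so their levels are uncertain in the same way as those of IMA1 and IMA2.

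PYE, a bHLH factor that restrains transport genes during deficiency, followed the IMA genes in bes1-D. It was at 40.2, 33.5 and 27.9 FPKM in RAV1-OE, 8.98, 8.75 and 10.2 FPKM in bes1-D and 20.1, 26.1 and 28.5 FPKM in WT, and fell in bes1-D by 2.68-fold with no overlap (-1.32 ± 0.15, limma adjusted p = 0.00148). In RAV1-OE against WT it was not called (0.43 ± 0.15, adjusted p = 0.0699), except without RAV1-OE replicate 3 (0.56, adjusted p = 0.0394). The 3 upstream bHLH factors among the 55 are BHLH121, ILR3 and BHLH104, known to turn on PYE, the Ib genes and BTS and to be regulated largely as proteins. They had log2 changes between -0.03 and 0.17 in RAV1-OE and between -0.09 and 0.05 in bes1-D, with none called. Upstream factors outside the 55 are not covered by these values, and the bHLH gene BHLH34 fell in bes1-D, as given below. ILR3 averaged 86.1 ± 5.83 FPKM in RAV1-OE, 74.7 ± 2.35 FPKM in bes1-D and 76.2 ± 1.53 FPKM in WT (SD, n = 3 each).

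BTS, the ligase that marks the upstream bHLH factors for degradation, was at 25.8, 35.2 and 17.3 FPKM in RAV1-OE, 16.2, 16.5 and 10.6 FPKM in bes1-D and 35, 29.8 and 29.5 FPKM in WT. It fell in bes1-D by 2.18-fold (-1.09 ± 0.24, limma adjusted p = 0.0241) and was not called in RAV1-OE (-0.31 ± 0.24). The bes1-D call ended without any 1 WT library or bes1-D replicate 3 (adjusted p 0.0607 to 0.0848). BTSL2, a root relative of BTS, was at 6.92, 6.14 and 7.15 FPKM in RAV1-OE, 4.23, 4.42 and 4.03 FPKM in bes1-D and 5.07, 3.69 and 4.49 FPKM in WT. BTSL2 rose in RAV1-OE (0.52 ± 0.13, adjusted p = 0.0178), a call that ended without WT replicate 2 or RAV1-OE replicate 1 or 3 (0.0608 to 0.0721), and not in bes1-D (-0.04 ± 0.13). BTSL1 averaged 4.45 ± 0.997 FPKM in RAV1-OE, 3.19 ± 0.206 FPKM in bes1-D and 5.12 ± 1.06 FPKM in WT (SD, n = 3 each) and was not called.

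**Figure D3:**
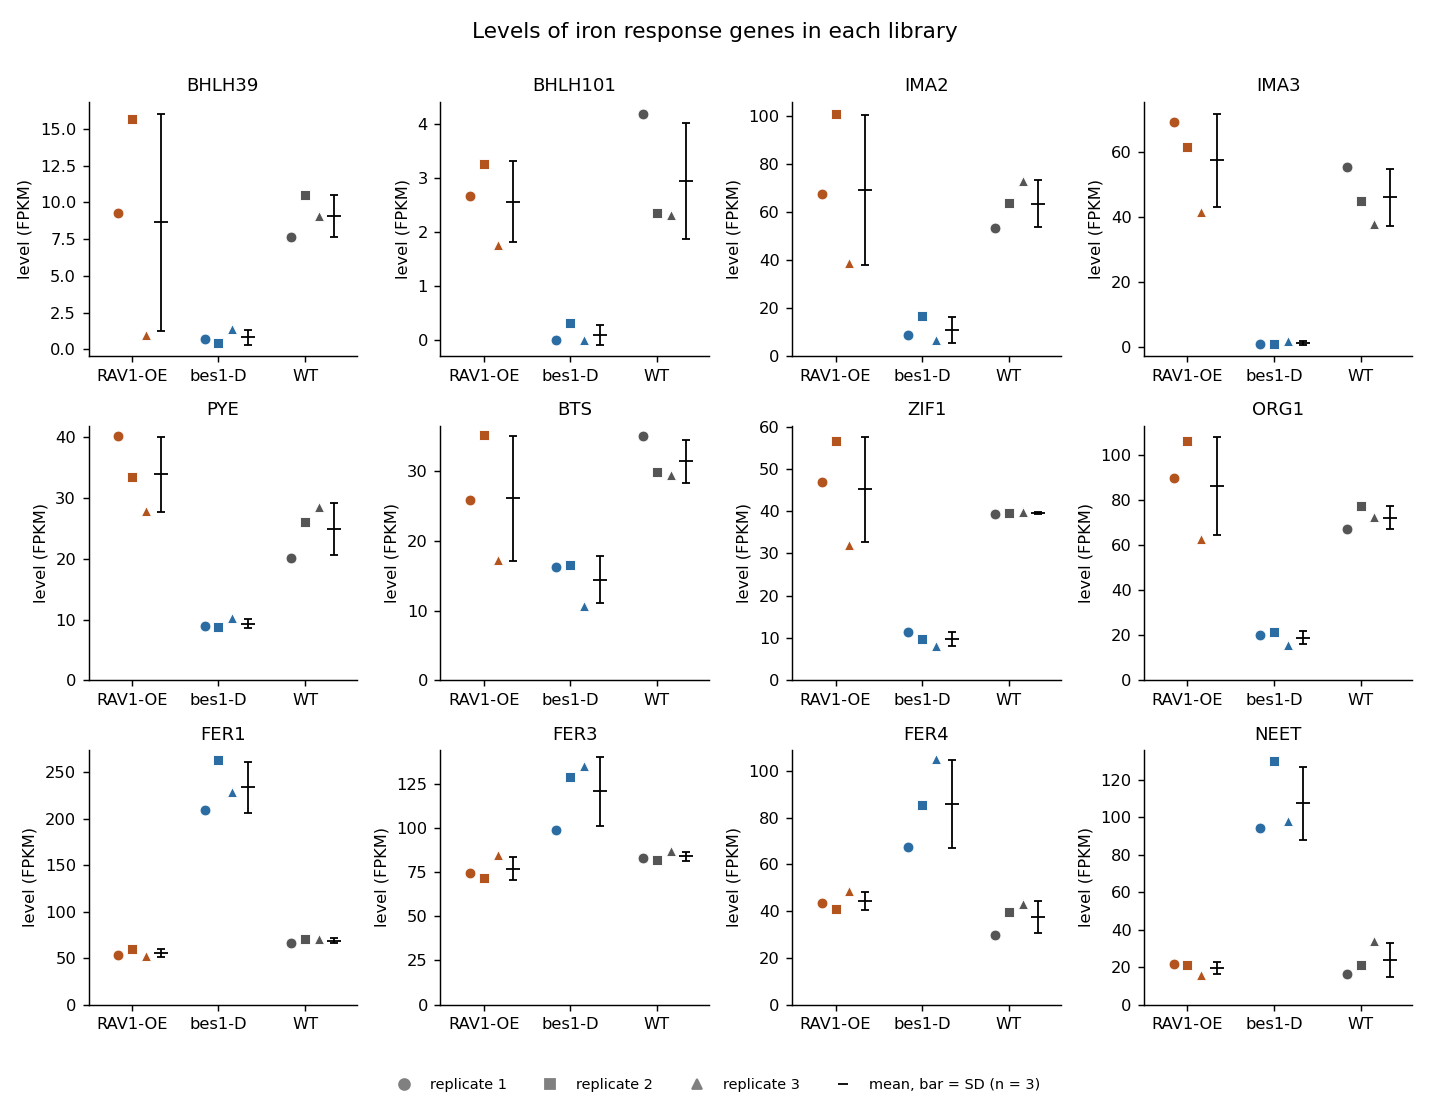
FPKM of 12 iron response and storage genes in each library, with the group mean and SD (n = 3). The bes1-D points of BHLH39, BHLH101, IMA2, IMA3, PYE, BTS, ZIF1 and ORG1 lie below all WT points and those of FER1, FER3, FER4 and NEET above them; RAV1-OE replicate 3 is the lowest RAV1-OE point of BHLH39 at 0.95 FPKM.

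Neither FIT nor the root uptake genes IRT1 and FRO2 were called in bes1-D against WT. FIT, the bHLH factor that turns on uptake in the root, was at 2.79, 2.94 and 5.64 FPKM in RAV1-OE, 5.3, 3.61 and 4.68 FPKM in bes1-D and 10.2, 5.57 and 9.92 FPKM in WT. IRT1, the ferrous iron importer, was at 27.9, 20.5 and 31.1 FPKM in RAV1-OE, 42.1, 20.4 and 31.7 FPKM in bes1-D and 65.4, 34.8 and 34.5 FPKM in WT. FRO2, the ferric reductase of the root surface, was at 3.57, 2.82 and 2.69 FPKM in RAV1-OE, 4.56, 2.31 and 3.63 FPKM in bes1-D and 7.67, 3.63 and 4.42 FPKM in WT. All RAV1-OE libraries were below all WT libraries for IRT1 and FRO2 and overlapped them for FIT, and FIT was the only one of these 3 genes that was called, lower in RAV1-OE (-1.0 ± 0.26, limma adjusted p = 0.0214). For IRT1 the log2 changes were -0.69 ± 0.31 in RAV1-OE (adjusted p = 0.131) and -0.49 ± 0.31 in bes1-D (0.372), and for FRO2 -0.59 ± 0.25 in RAV1-OE (0.118) and -0.45 ± 0.25 in bes1-D (0.317). FIT in bes1-D changed by -0.76 ± 0.26 (0.108), with all bes1-D libraries below all WT libraries. For IRT1 and FRO2 the bes1-D and WT libraries overlapped. The difference in FIT between RAV1-OE and bes1-D was -0.24 ± 0.26 (0.472). The FIT call ended without WT replicate 1 or 3 or RAV1-OE replicate 1 or 2 (adjusted p 0.0532 to 0.0815), and WT replicate 1 had the highest level of all 3 genes.

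GRF11, an adaptor protein of the general regulatory factor family that acts with FIT, was at 9.14, 7.81 and 8.19 FPKM in RAV1-OE, 13.6, 11.8 and 19.2 FPKM in bes1-D and 14.3, 10.1 and 16.2 FPKM in WT. It was lower in RAV1-OE than in WT (-0.61 ± 0.19, limma adjusted p = 0.0435) and than in bes1-D (-0.73 ± 0.19, adjusted p = 0.0136), with no overlap. The call against WT ended without WT replicate 1 or 3, any 1 RAV1-OE library or bes1-D replicate 1 (adjusted p 0.056 to 0.14), with no filter, and in limma without trend and robust options (0.0558 and 0.0671). MYB10, a root regulator that is needed at low iron, was at 1.15, 1.5 and 0.69 FPKM in RAV1-OE, at 0.2 FPKM in bes1-D replicate 2 and listed at 0 in the other bes1-D libraries, and at 1.57, 0.13 and 0.52 FPKM in WT. MYB10 was higher in RAV1-OE than in bes1-D (0.97 ± 0.29, adjusted p = 0.0246) and was not called against WT. That call ended without bes1-D replicate 1 or 3 (0.0642 and 0.065), and 5 alternatives did not test the gene. It reached 1 FPKM only in RAV1-OE replicates 1 and 2 and WT replicate 1, so it passed the filter through no bes1-D library. AHA2, a proton pump of the root surface, averaged 220 ± 31.2 FPKM in RAV1-OE, 252 ± 28 FPKM in bes1-D and 228 ± 21.1 FPKM in WT (SD, n = 3 each). MYB72, the partner of MYB10, was below the filter, listed at 0 in every library but WT replicate 3.

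Coumarin genes make and export the phenolics that mobilise iron outside the root. COSY, which closes the coumarin ring, was at 47.3, 46.9 and 49.2 FPKM in RAV1-OE, 31.1, 30.5 and 22.5 FPKM in bes1-D and 35.6, 36.2 and 28.3 FPKM in WT. It rose in RAV1-OE against WT (0.51 ± 0.13, limma adjusted p = 0.0212) and was also above bes1-D (0.76 ± 0.13, adjusted p = 0.00207), with all RAV1-OE libraries above the rest. F6'H1, the entry enzyme of scopoletin synthesis, was not called, at 20 ± 5.28 FPKM in RAV1-OE, 22.3 ± 1.57 FPKM in bes1-D and 29.2 ± 4.77 FPKM in WT (SD, n = 3 each; RAV1-OE against WT -0.54 ± 0.18, adjusted p = 0.0545). BGLU42, a glucosidase that frees coumarins from their sugar, and ABCG37, an exporter, had log2 changes of -0.09 ± 0.12 and 0.42 ± 0.15 in RAV1-OE and -0.36 ± 0.12 and 0.02 ± 0.15 in bes1-D, none called. S8H and CYP82C4, which make the catecholic coumarins, stayed at or below 0.57 FPKM in every library and were not tested. The COSY call against WT ended without WT replicate 3 or RAV1-OE replicate 1 or 3 (adjusted p 0.0625 to 0.0751) and under trimmed-mean or quantile scaling (0.0547 and 0.0549).

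Counted by role, the 9 tested deficiency-induced genes put under root regulators, root uptake or coumarins had a median log2 change of -0.54 in RAV1-OE (0 rose and 2 fell) and -0.36 in bes1-D (0 rose and 0 fell) against WT. For the 26 deficiency-induced genes of other roles, some of which also act in the root, the median was 0.08 in RAV1-OE (3 rose and 2 fell) and -0.88 in bes1-D (0 rose and 13 fell). Over all loci, 15.0% rose and 8.01% fell in RAV1-OE, and 2.19% rose and 5.77% fell in bes1-D. All 13 deficiency-induced genes that fell in bes1-D were listed under other roles. With 5.77% of all loci falling there, 9 genes are too few for 0 falls to be told apart from that share. Whether the 9 and the 26 genes differ was not tested. Of the 16 root markers 7 fell in bes1-D, as given above, and the part of the root markers in the values by role was not tested.

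**Figure D4:**
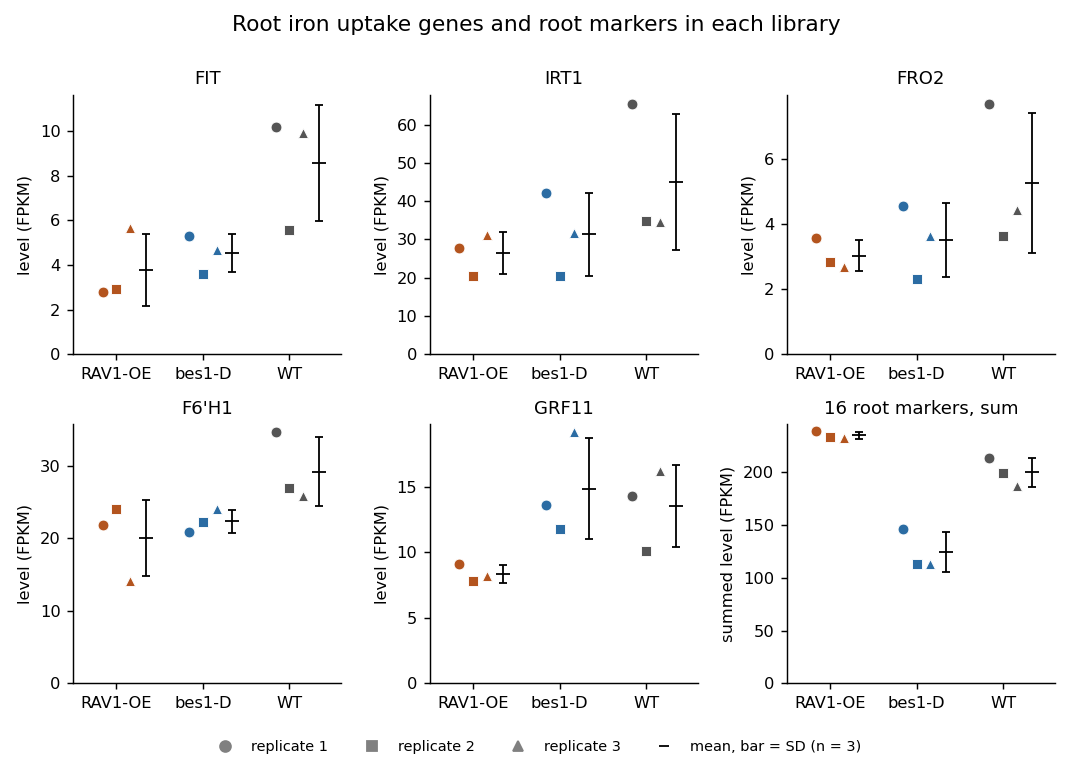
FPKM of FIT, IRT1, FRO2, F6'H1 and GRF11 and the summed FPKM of 16 root markers in each library, with the group mean and SD (n = 3). RAV1-OE lies below WT for IRT1, FRO2, F6'H1 and GRF11. Its root marker sum, 232 to 238 FPKM, lies above that of WT, 186 to 213 FPKM. By gene, 8 of the 16 markers changed upward and 8 downward in RAV1-OE, with a median log2 change of 0.06.

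The 4 nicotianamine synthases, which make the chelator that carries iron in the phloem, differed in direction: in RAV1-OE against WT 1 rose, 2 fell and 1 was not called, and in bes1-D 1 rose, 1 fell and 2 were not called. Over all loci, 15.0% rose and 8.01% fell in RAV1-OE, and 2.19% rose and 5.77% fell in bes1-D. NAS1 (AT5G04950, chr5:1457641-1459039) was at 19.7, 26.9 and 16.9 FPKM in RAV1-OE, 105, 117 and 75 FPKM in bes1-D and 133, 115 and 110 FPKM in WT. In RAV1-OE it was 5.63-fold below WT, with no overlap (-2.46 ± 0.19, limma adjusted p = 0.000116), and it was not called in bes1-D against WT (-0.29 ± 0.19, adjusted p = 0.401). NAS4 was at 8.07, 12.3 and 3.73 FPKM in RAV1-OE, 18.5, 23.5 and 26.3 FPKM in bes1-D and 27.4, 24.8 and 26.3 FPKM in WT, lower in RAV1-OE than in WT (-1.71 ± 0.31, adjusted p = 0.00505) and than in bes1-D (-1.51 ± 0.31, adjusted p = 0.00556). NAS2 was at 3.54, 4.49 and 3.47 FPKM in RAV1-OE, 0.15, 0 and 0.58 FPKM in bes1-D and 1.72, 1.86 and 2.93 FPKM in WT. It fell in bes1-D (-1.36 ± 0.22, adjusted p = 0.00603), was not called in RAV1-OE against WT (0.62 ± 0.22, adjusted p = 0.0625), and was higher in RAV1-OE than in bes1-D (1.98 ± 0.22, adjusted p = 0.000169). No bes1-D library of NAS2 reached 1 FPKM, so the gene passed the filter only through RAV1-OE and WT, where it was higher. NAS1 and NAS4 were thus low in RAV1-OE and NAS2 low in bes1-D.

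NAS3, the isoform that is high when iron is ample, was at 13.8, 6.62 and 31.2 FPKM in RAV1-OE, 11.1, 26.3 and 18.1 FPKM in bes1-D and 3.17, 4.42 and 4.68 FPKM in WT. All libraries of both genotypes were above all WT libraries, and it rose in RAV1-OE (1.61 ± 0.48, limma adjusted p = 0.0422) and in bes1-D (1.87 ± 0.48, adjusted p = 0.0491). In RAV1-OE, NAS3 was highest in replicate 3 and lowest in replicate 2, as were the seed maturation markers and RAV1 itself, and their part in the result was not tested. The RAV1-OE call ended without any 1 WT library or RAV1-OE replicate 1 or 3 (adjusted p 0.0851 to 0.116) and under either scaling or with no filter (0.0502 to 0.0518), and the bes1-D call without any 1 of the WT or bes1-D libraries or RAV1-OE replicate 1 (0.0529 to 0.145) and with no filter. The coding sequences of NAS1 and NAS2 are 84.7% identical and those of NAS3 and NAS4 80.6%, so fragments shared within these pairs make their levels uncertain.

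**Figure D5:**
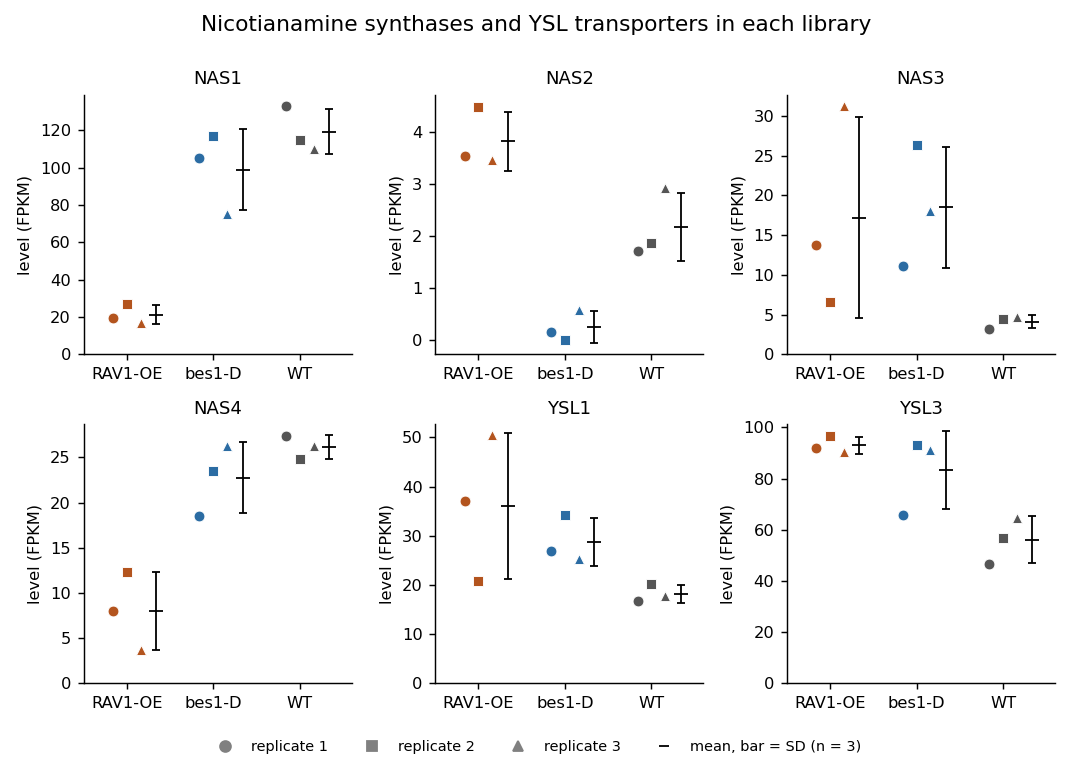
FPKM of NAS1 to NAS4, YSL1 and YSL3 in each library, with the group mean and SD (n = 3). NAS1 lies at 16.9 to 26.9 FPKM in RAV1-OE and 110 to 133 FPKM in WT, NAS2 is lowest in bes1-D, and NAS3 and YSL3 lie above WT in both genotypes.

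Of the 4 long-distance carriers, 3 rose in RAV1-OE against WT (75.0%, against 15.0% of all loci). The call of YSL1, 1 of these 3, ended in 13 of 18 alternatives. FRD3, which loads citrate into the xylem, was at 9.38, 7.92 and 8.64 FPKM in RAV1-OE, 5.03, 5.58 and 4.13 FPKM in bes1-D and 4.44, 4.22 and 3.06 FPKM in WT, higher in RAV1-OE than in WT (0.98 ± 0.15, limma adjusted p = 0.00191) and than in bes1-D (0.71 ± 0.15, adjusted p = 0.00531). YSL3, an iron-nicotianamine carrier of the veins, was at 91.9, 96.5 and 90.5 FPKM in RAV1-OE, 65.8, 93 and 91.3 FPKM in bes1-D and 46.5, 56.9 and 64.8 FPKM in WT. It rose in RAV1-OE (0.73 ± 0.15, adjusted p = 0.0069) and in bes1-D (0.56 ± 0.15, adjusted p = 0.0467), and the WT libraries were below all others. YSL1, its close relative, was at 37.1, 20.8 and 50.4 FPKM in RAV1-OE, 26.9, 34.3 and 25.2 FPKM in bes1-D and 16.8, 20.3 and 17.7 FPKM in WT. YSL1 rose in RAV1-OE (0.86 ± 0.26, adjusted p = 0.0435) and was not called in bes1-D (0.62 ± 0.26, adjusted p = 0.193), and like NAS3 it was highest in RAV1-OE replicate 3 and lowest in replicate 2. The YSL1 call ended without any 1 library other than RAV1-OE replicate 2 (adjusted p 0.05 to 0.124) and under either scaling, no filter, the replicate block or a fit of RAV1-OE and WT alone (0.0598 to 0.0746), and the YSL3 call in bes1-D without WT replicate 1 or 2, any 1 RAV1-OE library or bes1-D replicate 2 or 3 (0.0527 to 0.151) and with no filter, without trend and robust options or with bes1-D and WT alone (0.0709 to 0.0779). OPT3, the phloem carrier that reports shoot iron to the root, was at 103, 101 and 90.3 FPKM in RAV1-OE, 68.9, 54.5 and 36.6 FPKM in bes1-D and 113, 104 and 101 FPKM in WT. It fell in bes1-D by 1.99-fold (-1.02 ± 0.18, adjusted p = 0.0106) and not in RAV1-OE (-0.11 ± 0.18).

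Ferric reductases that work away from the root surface split by genotype. FRO3, of mitochondria, was at 67.6, 65 and 60.7 FPKM in RAV1-OE, 35.5, 32.4 and 31.8 FPKM in bes1-D and 53.8, 53.5 and 56.4 FPKM in WT, and fell in bes1-D (-0.70 ± 0.08, limma adjusted p = 0.00148). FRO7, of chloroplasts, was at 25.1, 23.9 and 18.9 FPKM in RAV1-OE, 14.8, 14.4 and 9.64 FPKM in bes1-D and 14.4, 12.8 and 11.2 FPKM in WT. FRO6, of the leaf cell surface, was at 28.8, 33.7 and 21.1 FPKM in RAV1-OE, 14.4, 15.6 and 13.4 FPKM in bes1-D and 19.2, 17 and 17.4 FPKM in WT. FRO7 (0.77 ± 0.17, adjusted p = 0.00978) and FRO6 (0.59 ± 0.15, adjusted p = 0.0182) rose in RAV1-OE and all 3 reductases were higher in RAV1-OE than in bes1-D, with differences of 0.93 for FRO3, 0.88 for FRO6 and 0.77 for FRO7. FRO6 and FRO7 are neighbours 706 bases apart with 93.9% identical coding sequences, so their levels are uncertain. The FRO6 call against WT ended without WT replicate 2 or 3 or RAV1-OE replicate 1 (adjusted p 0.053 to 0.0675) and under quantile scaling (0.0504).

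Among vacuolar and other carriers ZIF1, which moves nicotianamine into the vacuole, was at 47, 56.6 and 31.9 FPKM in RAV1-OE, 11.5, 9.82 and 8.12 FPKM in bes1-D and 39.4, 39.5 and 39.9 FPKM in WT. It fell in bes1-D by 4.04-fold (-1.92 ± 0.19, limma adjusted p = 0.000533), below every other library, and its RAV1-OE and WT levels overlapped (0.15 ± 0.19). NRAMP4, which releases iron from the vacuole, was at 40.6, 39.1 and 40.1 FPKM in RAV1-OE, 19.2, 18.3 and 17 FPKM in bes1-D and 30.7, 30.6 and 31.7 FPKM in WT. NRAMP4 was higher in RAV1-OE (0.36 ± 0.08, adjusted p = 0.0104) and lower in bes1-D (-0.74 ± 0.08, adjusted p = 0.000957) than in WT, and of the 52 genes only it and FER1 were called in opposite directions. IREG2, a vacuolar metal carrier of the root, was at 7.07, 5.73 and 7.96 FPKM in RAV1-OE, 4.92, 3.46 and 2.8 FPKM in bes1-D and 5.32, 4.53 and 5.25 FPKM in WT. NRAMP1, a manganese and iron importer, was at 35.3, 33.7 and 46.9 FPKM in RAV1-OE, 28.2, 30.2 and 29.8 FPKM in bes1-D and 37.4, 32.7 and 40 FPKM in WT. Both were higher in RAV1-OE than in bes1-D (IREG2 0.76 ± 0.18, adjusted p = 0.00825; NRAMP1 0.37 ± 0.13, adjusted p = 0.0425) and neither was called against WT. The NRAMP1 call ended without WT replicate 1 or 3, RAV1-OE replicate 1 or 3 or any 1 bes1-D library (adjusted p 0.0503 to 0.135) and under either scaling, with no filter, without trend and robust options or with RAV1-OE and bes1-D alone (0.0586 to 0.241). NRAMP3, the partner of NRAMP4, and the zinc carrier MTP3 had log2 changes of 0.51 ± 0.23 and -0.12 ± 0.21 in RAV1-OE and 0.26 ± 0.23 and -0.05 ± 0.21 in bes1-D, none called.

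Of 3 response genes of other or unknown function, AT5G05250 and ORG1 fell in bes1-D (66.7%, against 5.77% of all loci) and AT3G07720 was not called. AT5G05250 (chr5:1556987-1558486), a deficiency-induced gene of unknown function, was at 38.1, 48 and 31.4 FPKM in RAV1-OE, 3.62, 3.18 and 1.61 FPKM in bes1-D and 33, 37 and 37.7 FPKM in WT, 12.8-fold lower in bes1-D than in WT (-3.32 ± 0.21, limma adjusted p = 3.43e-05). ORG1, which encodes a kinase-like protein, was at 89.9, 106 and 62.8 FPKM in RAV1-OE, 20.1, 21.3 and 15.6 FPKM in bes1-D and 67, 77.1 and 72.5 FPKM in WT, 3.8-fold lower in bes1-D (-1.88 ± 0.18, adjusted p = 0.000512). In both genes the bes1-D libraries were below all others and RAV1-OE overlapped WT. AT3G07720, which encodes a kelch-repeat protein, was not called, at 12.1 ± 1.24 FPKM in RAV1-OE, 14.8 ± 1.94 FPKM in bes1-D and 15.6 ± 3.58 FPKM in WT (SD, n = 3 each).

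Of the 7 storage genes tested, FER1, FER3 and FER4 rose in bes1-D (42.9%, against 2.19% of all loci) and the others were not called. The largest of these rises was that of FER1, a plastid ferritin that is known as a marker of ample iron. FER1 (AT5G01600, chr5:227953-230051) was at 53.7, 59.9 and 52 FPKM in RAV1-OE, 209, 263 and 229 FPKM in bes1-D and 65.9, 70.4 and 70.4 FPKM in WT. It rose 3.39-fold in bes1-D (1.74 ± 0.10, limma adjusted p = 1.15e-05) and was lower in RAV1-OE than in WT (-0.32 ± 0.10, adjusted p = 0.0445), with no overlap between any groups. The call in RAV1-OE ended without any 1 WT library or RAV1-OE replicate 1 or 3 (adjusted p 0.076 to 0.138), with no filter and without trend and robust options (0.0552 and 0.0666). FER4 was at 43.6, 40.8 and 48.4 FPKM in RAV1-OE, 67.5, 85.3 and 105 FPKM in bes1-D and 29.7, 39.5 and 43.1 FPKM in WT, and rose in bes1-D (1.17 ± 0.17, adjusted p = 0.0046). FER3 was at 74.6, 71.8 and 84.5 FPKM in RAV1-OE, 98.6, 129 and 135 FPKM in bes1-D and 82.8, 81.8 and 87 FPKM in WT, and rose in bes1-D (0.51 ± 0.12, adjusted p = 0.0307). All bes1-D libraries were above all others for these 3 leaf ferritins, which were also lower in RAV1-OE than in bes1-D (-2.06 for FER1, -0.92 for FER4 and -0.64 for FER3), and FER3 and FER4, 79.8% identical in coding sequence, were not called in RAV1-OE against WT. The FER3 call in bes1-D ended without any 1 WT library, RAV1-OE replicate 1 or bes1-D replicate 2 or 3 (adjusted p 0.0537 to 0.102) and without trend and robust options (0.0505).

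FER2, the ferritin of seeds, was at 9.99, 8.19 and 15.5 FPKM in RAV1-OE, 5.51, 8.32 and 7.66 FPKM in bes1-D and 6.85, 4.8 and 6.38 FPKM in WT. It rose in RAV1-OE (0.77 ± 0.22, limma adjusted p = 0.0319) and not in bes1-D (0.21 ± 0.22, adjusted p = 0.619). As with NAS3 and YSL1, its RAV1-OE level was highest in replicate 3 and lowest in replicate 2, the order of the seed maturation markers, and their part in the result was not tested. The call ended without WT replicate 2 or 3 or RAV1-OE replicate 1 or 3 (adjusted p 0.0618 to 0.114) and under quantile scaling or with no filter (0.0515 and 0.0536).

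VTL5, a vacuolar iron transporter-like gene, was at 8.37, 6.43 and 7.92 FPKM in RAV1-OE, 7.72, 5.61 and 6.32 FPKM in bes1-D and 4.75, 4.13 and 4.35 FPKM in WT, and rose in RAV1-OE (0.66 ± 0.14, limma adjusted p = 0.00882). In bes1-D all libraries of VTL5 were also above WT, without a call (0.47 ± 0.14, adjusted p = 0.0689). Its relatives VTL1 and VTL2 were at or below 3.78 FPKM in every library and were not called. NEET, an iron-sulfur protein of chloroplasts and mitochondria, was at 21.4, 20.9 and 15.6 FPKM in RAV1-OE, 94.4, 130 and 98.3 FPKM in bes1-D and 16.5, 21 and 33.9 FPKM in WT. It rose 4.52-fold in bes1-D (2.18 ± 0.24, adjusted p = 0.00144), above every other library, and was not called in RAV1-OE (-0.24 ± 0.24, adjusted p = 0.49). On the log2(FPKM + 1) scale this was the highest rise of the iron genes tested in bes1-D, while in the ratio of means NAS3, a gene of lower level, was also 4.52-fold above WT.

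Iron genes outside the 55 were counted from a wider list written from textbook knowledge. Of 26 further regulators, reductases and carriers, 19 were tested. In RAV1-OE against WT 2 of them rose and 1 fell, and in bes1-D 1 rose and 2 fell. These calls were 15.8% of the 19 in each comparison, against 23.0% of all loci in RAV1-OE and 7.96% in bes1-D. IRT3, a zinc and iron importer, was at 27.4, 24 and 34.3 FPKM in RAV1-OE, 12.2, 14.6 and 12.6 FPKM in bes1-D and 8.23, 10.1 and 10.5 FPKM in WT, and rose in RAV1-OE (1.47 ± 0.14, limma adjusted p = 0.000246). IRT2, a relative of IRT1 in root cell vesicles, also rose in RAV1-OE (0.86 ± 0.24, adjusted p = 0.027) and IREG1, an iron exporter of the vasculature, fell there (-0.63 ± 0.17, adjusted p = 0.026). In bes1-D the bHLH genes BHLH34 (-0.51, adjusted p = 0.024) and BHLH25 (-1.06, adjusted p = 0.0296) fell and the reductase FRO8 (0.53, adjusted p = 0.0226) rose. Leaving out 1 library ended these calls in at least 1 case for IRT2 (WT replicate 2 or 3 or RAV1-OE replicate 2, adjusted p 0.0727 to 0.102), IREG1 (WT replicate 1 or 2 or RAV1-OE replicate 3, 0.0725 to 0.0848), BHLH34 (any 1 WT library or bes1-D replicate 1 or 2, 0.0541 to 0.0896, and also quantile scaling, 0.051), BHLH25 (WT or bes1-D replicate 1 or 2, 0.0662 to 0.101, and also a fit of bes1-D and WT alone, 0.051) and FRO8 (WT replicate 1 or 3 or bes1-D replicate 1, 0.0646 to 0.0804), and for IRT3 in none.

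Of 11 genes that build iron-sulfur clusters, 2 fell in RAV1-OE and 1 rose in bes1-D against WT. These calls were 18.2% of the 11 in RAV1-OE and 9.09% in bes1-D, against 23.0% and 7.96% of all loci. SUFB, the scaffold of the plastid pathway, was at 65, 52.6 and 77.6 FPKM in RAV1-OE, 88.8, 97.7 and 94.9 FPKM in bes1-D and 51.1, 50.8 and 60.8 FPKM in WT. It rose in bes1-D (0.78 ± 0.13, limma adjusted p = 0.00792), above every other library. SUFA (-0.44, adjusted p = 0.00753) and NFU3 (-0.45, adjusted p = 0.0066), carriers of assembled clusters in plastids, fell in RAV1-OE, where the green-tissue markers also fell.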

How the data were processed

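Values were measured by paired-end RNA sequencing in 9 libraries, 3 biological replicates of each of 3 groups per the labels. The authors deposited FPKM for each library at 25199 loci; per the submitters' processing notes FastQC 0.10.1, TopHat2, Cufflinks 2.1.1 and the TAIR10 genome were used, and any further scaling between libraries is not given in the sources used here. FPKM sums per library ran from 890880 to 971271. FPKM carry no depth; the relative depth (82% to 115% of WT replicate 1) was estimated from the steps of 163 to 276 low loci a library, 25 to 80 of them at the peak.

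From the deposited FPKM, log2(FPKM + 1) was fitted by limma 3.58.1 (R 4.3.3, trend and robust options) over the 19740 loci that reached 1 FPKM in 3 or more libraries. All 9 libraries were fitted as group means (6 residual degrees of freedom) with 3 two-sided contrasts, and calls were made where the Benjamini-Hochberg adjusted p was under 0.05. A blank value in bes1-D replicate 1, at a locus outside the list, was dropped. The fit was checked on simulated data. Errors are SD of FPKM or SE of log2 changes.

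The members, classes, lists and tests were chosen with earlier results of these data known. By rule, every library is given for members called in any comparison and for FIT, IRT1, FRO2, the Ib bHLH and IMA genes, PYE, BTS and the ferritins. Of the other iron genes, only called ones are named, and of these the values in every library are given for IRT3 and SUFB, chosen after their values were seen.

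Alternatives were trimmed-mean and quantile scaling, other pseudocounts (0.1 and 0.5) and filters (5 FPKM and none), limma without trend and robust options, the replicate number as a block, only the groups compared, and leaving out each library. Gene positions, promoters (250 bases before the start) and coding sequences came from the RefSeq annotation of TAIR10.1, matched by locus identifier. Motifs were counted on both strands in 25134 promoters. Python 3.11.15 was used with numpy 2.4.6, pandas 2.3.3, scipy 1.17.1 and matplotlib 3.10.9.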

Additional observations from a re-analysis of the deposited data

How the results depend on the processing

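Every iron gene called kept its direction under every alternative that tested it. Calls that held in every alternative where the gene was tested were 7 of 16 in RAV1-OE against WT and 14 of 19 in bes1-D against WT. Between RAV1-OE and bes1-D they were 23 of 29. In RAV1-OE against WT, quantile scaling left 6 of 11 higher genes (without 1 library 5 to 12), and 3 of 5 lower genes were left both with no filter and by limma without trend and robust options (without 1 library 2 to 5). There the iron-replete median of 0.26 became 0.49 with pseudocount 0.1 and 0.66 with the 5 FPKM filter (without 1 library 0.26 to 0.46), and the deficiency-induced median was -0.16 under trimmed-mean scaling and -0.13 to 0.03 without 1 library. In bes1-D against WT, leaving out 1 library gave 3 to 6 higher and 11 to 15 lower genes, a deficiency-induced median of -0.64 to -0.4 (-0.71 with pseudocount 0.1) and an iron-replete median of 0.56 to 0.71. Between RAV1-OE and bes1-D it gave 17 to 24 higher and 7 to 8 lower genes, a deficiency-induced median of 0.54 to 0.87 (0.56 under quantile scaling) and an iron-replete median of -0.71 to -0.04 (-0.42 under trimmed-mean and -0.44 under quantile scaling). The iron-replete genes higher in RAV1-OE than in WT numbered 3 under trimmed-mean scaling, 2 under quantile scaling and 2 with no filter, against 5. The causes were not tested.

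Directions turned only for changes without a call. IMA2 in RAV1-OE against WT (0.03) was -0.07 under trimmed-mean and -0.06 under quantile scaling, and between -0.29 and 0.38 without 1 library. In the same comparison BHLH39 ran from -1.16 to 0.39 and BHLH101 from -0.28 to 0.07 without 1 library, positive without RAV1-OE replicate 3 for both and also without WT replicate 1 for BHLH101. Between RAV1-OE and bes1-D, IRT1 ran from -0.47 to 0.04 and FRO2 from -0.34 to 0.03, positive only without bes1-D replicate 1. BHLH39 in bes1-D against WT was also called with pseudocount 0.1 (adjusted p = 0.0499).

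Correlations of deviations between same-numbered libraries were between -0.076 and 0.151, 2 of 9 over 0.1. With only 3 libraries a group, these values cannot settle whether the numbers pair the samples. A fit with the replicate block gave 11 higher and 7 lower iron genes in RAV1-OE against WT, 5 and 13 in bes1-D against WT, and 22 and 8 between RAV1-OE and bes1-D. The block ended the calls of YSL1 in RAV1-OE and NAS3 in bes1-D against WT and of BHLH39 between RAV1-OE and bes1-D, and the calls it added include IRT1 (adjusted p = 0.0306) and FRO2 (0.0388), lower in RAV1-OE than in WT.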
